A study of Mus musculus with 2 samples.

Results

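The genes of glycolysis and lactate transport followed here through the cell classes of a mouse eye section were 10 in number: Slc2a1, Hk1, Hk2, Aldoa, Pkm, Ldha, Ldhb, Slc16a1, Slc16a8 and Bsg. They were taken by gene symbol and occupied 11 of the 32285 rows of the expression matrix, since Aldoa stood on 2 rows, which were added. The tissue was labelled retina, fresh-frozen and cut at 10 micrometres, and SeekSpace gave each nucleus RNA counts and a position on a chip. The study's design names Prph2 heterozygous mice, which carry a missense allele of this outer segment gene, and wild-type mice, all C57BL/6J, with spatial data at 6 months. The single expression library, T1, has no genotype or replicate label, so no genotype was compared or inferred, and the untreated tissue behind it stands without a group. The other sample is labelled as the spatial-barcode library of the same section of 1 eye. All intervals below are therefore counting error only, no p-value was computed, and 4 pieces of tissue on the chip, which carry no label, stand side by side as positions and not as replicates. The labels name 1 section of 1 eye, but a separate ring of RPE-like nuclei was fitted to each piece. Whether the pieces come from 1 section, 1 eye or 1 genotype cannot be told.

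Glycolysis splits glucose into pyruvate, and lactate dehydrogenase turns pyruvate into lactate or back. The outer retina is known for making much lactate even with oxygen at hand: photoreceptors take glucose that the retinal pigment epithelium (RPE) passes on from the choroid, and lactate leaves towards the RPE and Müller glia. Slc2a1 encodes the glucose transporter GLUT1. Slc16a1 encodes the lactate transporter MCT1, Slc16a8 encodes MCT3, and Bsg encodes basigin, the partner that brings both to the membrane. Hk1 and Hk2 encode hexokinases, which trap glucose in the cell, and Aldoa an aldolase. Pkm encodes pyruvate kinase M, whose splice forms cannot be told apart in counts per gene. Ldha encodes the subunit of lactate dehydrogenase known to favour making lactate, and Ldhb the one known to favour making pyruvate.

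On GRCm38.p6 the transport genes lie at chr4:119108745-119137330 (Slc2a1), chr3:104638664-104658462 (Slc16a1), chr15:79251016-79255562 (Slc16a8) and chr10:79704358-79711979 (Bsg). The hexokinase genes lie at chr10:62268855-62379920 (Hk1) and chr6:82725025-82774454 (Hk2). The later enzymes lie at chr7:126795234-126800994 (Aldoa), chr9:59656576-59679372 (Pkm), chr7:46842274-46855627 (Ldha) and chr6:142490249-142507957 (Ldhb). Over all kept nuclei the genes had from 2160 UMIs (Slc16a8) to 44031 UMIs (Aldoa).

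The promoters of 3 genes that led in RPE-like nuclei (Slc16a8, Slc16a1 and Ldhb) and of 2 that led in photoreceptor-like nuclei (Hk2 and Ldha) are printed here as examples of each set, and they do not stand for the other members. Each is the 250 bases before a RefSeq start on GRCm38.p6, the assembly that mm10 names, read 5′ to 3′ on the gene's strand. Capitals mark ACGTG (a core bound by hypoxia-inducible factors), CACGTG (the E-box) or TAATCC (a site read by CRX and OTX homeodomain factors) on either strand. Slc16a8 lies at chr15:79254749-79254998 on the minus strand, Slc16a1 at chr3:104638414-104638663 on the plus strand, Ldhb at chr6:142507958-142508207 on the minus strand, Hk2 at chr6:82774455-82774704 on the minus strand, and the first Ldha window at chr7:46845554-46845803 on the plus strand. The Slc16a8 and Ldha windows lie inside the gene spans given above, so they precede starts within the gene and not its outermost end.
Slc16a8: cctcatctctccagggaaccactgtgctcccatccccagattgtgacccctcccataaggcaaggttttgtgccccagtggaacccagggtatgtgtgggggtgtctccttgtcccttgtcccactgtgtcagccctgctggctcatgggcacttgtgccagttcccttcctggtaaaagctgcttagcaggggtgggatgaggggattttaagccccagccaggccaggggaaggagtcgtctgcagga
Slc16a1: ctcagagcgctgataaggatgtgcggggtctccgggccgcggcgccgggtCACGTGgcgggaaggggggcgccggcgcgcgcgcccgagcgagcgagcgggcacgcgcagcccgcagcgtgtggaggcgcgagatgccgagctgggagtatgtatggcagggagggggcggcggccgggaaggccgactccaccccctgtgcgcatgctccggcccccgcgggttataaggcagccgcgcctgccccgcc
Ldhb: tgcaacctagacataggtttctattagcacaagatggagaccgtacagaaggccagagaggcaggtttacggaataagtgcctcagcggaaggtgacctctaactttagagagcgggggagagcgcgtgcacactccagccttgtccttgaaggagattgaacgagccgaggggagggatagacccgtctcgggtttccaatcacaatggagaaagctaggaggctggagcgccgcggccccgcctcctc
Hk2: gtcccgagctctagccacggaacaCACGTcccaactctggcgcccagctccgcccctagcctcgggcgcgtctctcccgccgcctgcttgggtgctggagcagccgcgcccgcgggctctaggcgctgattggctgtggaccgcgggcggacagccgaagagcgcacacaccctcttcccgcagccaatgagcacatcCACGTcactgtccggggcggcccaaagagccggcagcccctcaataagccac
Ldha: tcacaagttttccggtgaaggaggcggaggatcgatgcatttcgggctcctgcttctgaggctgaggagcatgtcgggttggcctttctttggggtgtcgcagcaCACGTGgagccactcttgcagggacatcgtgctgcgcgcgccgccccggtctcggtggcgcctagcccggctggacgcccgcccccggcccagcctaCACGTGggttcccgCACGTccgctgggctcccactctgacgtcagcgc
None of the 3 motifs is in the Slc16a8 or Ldhb window. Slc16a1 holds 1 CACGTG, Hk2 holds ACGTG at 2 places on the opposite strand, and Ldha holds 2 CACGTG and 1 further ACGTG on the opposite strand. CACGTG contains ACGTG on both strands, so the motifs overlap there. Of the 10 genes, 9 had a RefSeq window, 14 windows in all, and ACGTG was in 7 of these, from 6 genes and partly overlapping each other, against 16.6% of all 32851 windows. CACGTG was in 2 of the 14 (6.02% of all windows) and TAATCC in 1, the second Ldha window, which is not printed (6.25% of all). The windows that are not printed go both ways: Slc2a1, highest in RPE-like nuclei, has 1 ACGTG, and neither of the Hk1 windows, of a gene highest in rod-like nuclei, has any of the motifs. These matches are letters in a window and say nothing of binding.

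The library held 16867 nuclei after filtering, with a median of 1811 UMIs (distinct RNA molecules counted) and 1042 genes. Clusters were named only from marker genes, giving 20 classes of 53 to 5778 nuclei, while 11 clusters with 7.19% of the nuclei stayed unnamed. Rod-like nuclei led all 12 rod markers, cone-like nuclei all 10 cone markers and Müller glia-like nuclei 6 of 10. RPE-like nuclei led 7 of 8 RPE markers, with Rpe65 at 3024 CPM, but Best1, another RPE marker, stood at 0.822 CPM there and was highest in fibroblast-like nuclei. Horizontal-like nuclei had 2 of their 6 markers at 0, and astrocyte-like nuclei led only 2 of 5. Lens-, muscle-, melanocyte- and surface epithelium-like nuclei were present although the tissue label reads retina. The 12 rod markers together stood at 60.4% of their rod level in cone-like nuclei, at 2.90% in RPE-like and at 3.74% in Müller glia-like nuclei. For some genes that are low in a class and high in rods, the level at that proportion of the rod level is given below for scale. The part of rod RNA in the levels of other classes was not tested.

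The 10 genes differed in the class where they were highest. Slc2a1, Ldhb, Slc16a1, Slc16a8 and Bsg were highest in RPE-like nuclei, whereas Hk1, Hk2 and Ldha were highest in rod- or cone-like nuclei, and Pkm and Aldoa were highest in ganglion cell-like and skeletal muscle-like nuclei. Levels are given as CPM, the usual scaling of a gene's UMIs to the total UMIs of its pooled class, and serve to compare classes for 1 gene, not genes with each other. Class-high means here that the 95% interval of the top class lay above 2 times the interval of any of the other 19 classes. Slc16a1, Slc16a8 and Bsg met this, 3 of 10 and all in RPE-like nuclei, against 7.83% of the 18767 measured genes called in any class and 0.49% called in RPE-like nuclei. Bsg was not called without piece 4 or with 15 components, and neither Slc16a1 nor Bsg was called after thinning to 500 UMIs or when the endothelial-like clusters were taken apart, as described with those clusters.

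**Figure D1:**
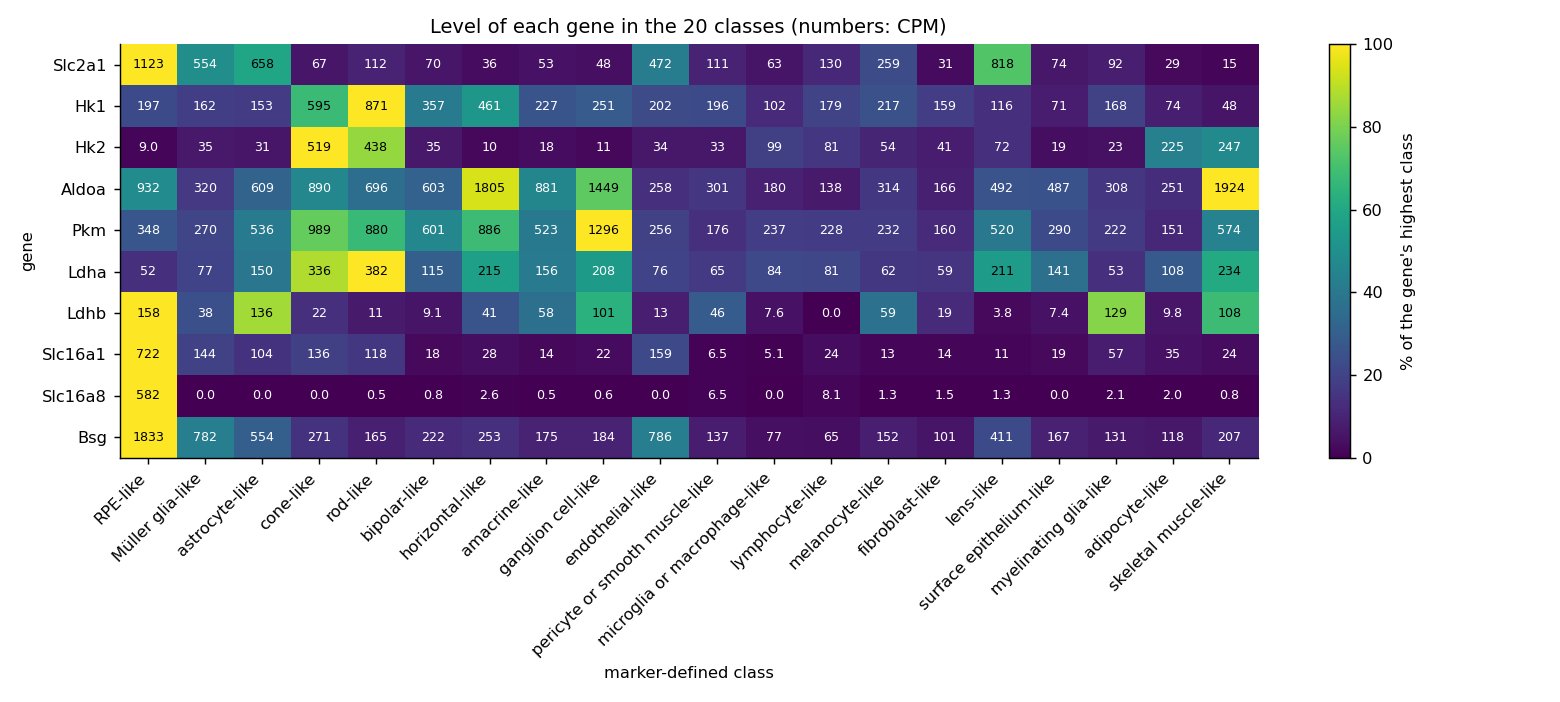
Heat map of the 10 genes (rows) in the 20 marker-defined classes (columns). Numbers are levels in CPM and colours the percentage of the gene's highest class; Slc16a8 is at 582 CPM in RPE-like nuclei and at or under 8.13 CPM elsewhere, whereas Hk2 is at 9.04 CPM in RPE-like nuclei and at 519 and 438 CPM in cone- and rod-like nuclei.

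Against rod-like nuclei, RPE-like nuclei had higher Slc2a1, Slc16a1, Slc16a8, Bsg and Ldhb and lower Hk1, Hk2, Pkm and Ldha. Past 2-fold, with the whole interval of the ratio beyond 2, 5 of the 10 genes were higher in RPE-like nuclei, against 15.1% of all measured genes, and 4 were lower, against 13.7% (28.8% in either direction). Pkm was not called after thinning every nucleus to 500 UMIs. The median log2 ratio of RPE-like over rod-like nuclei was 1.52 for the 10 genes and -0.22 for 15689 genes with UMIs in both. Aldoa alone lay within 2-fold, at 932 CPM in the RPE-like class and 696 CPM in the rod-like class (ratio 1.34, 1.28 to 1.40).

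Slc2a1, the glucose transporter gene, was highest in RPE-like nuclei among the pooled classes. Among single clusters, endothelial-like cluster 35 (1697 CPM) and lens-like cluster 49 (1462 CPM, 1341 to 1591) stood above both RPE-like clusters (1150 and 928 CPM). It stood at 1123 CPM in RPE-like nuclei (95% interval 1089 to 1158) and at 112 CPM in rod-like nuclei (105 to 119), a ratio of 10.04 (9.38 to 10.7). Lens-like nuclei followed the RPE at 818 CPM, then astrocyte-like nuclei at 658 CPM, Müller glia-like nuclei at 554 CPM (518 to 591) and endothelial-like nuclei at 472 CPM. The intervals of the astrocyte- and Müller glia-like classes overlapped. Cone-like nuclei, at 67.1 CPM (56.0 to 79.8), were 1.67-fold below rod-like nuclei (1.39 to 2.02). The inner retinal neurons had little: 69.8 CPM in bipolar-like, 52.8 CPM in amacrine-like and 47.7 CPM in ganglion cell-like nuclei.

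Both hexokinase genes were highest in photoreceptor-like nuclei, and their order over the other classes differed. Hk1 stood at 595 CPM in cone-like nuclei, against 871 CPM in rod-like nuclei (853 to 890), and horizontal-like nuclei followed at 461 CPM and bipolar-like nuclei at 357 CPM, with no overlap between these last. Hk2 stood at 519 CPM in cone-like nuclei (488 to 553) and 438 CPM in rod-like nuclei (425 to 451), so the order of the photoreceptor classes was the reverse of that for Hk1. Outside the photoreceptors Hk2 was highest in skeletal muscle-like nuclei at 247 CPM and adipocyte-like nuclei at 225 CPM, whose intervals overlapped.

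The lowest Hk2 level of all classes was in RPE-like nuclei, at 9.04 CPM from 33 UMIs (6.22 to 12.7). Rod-like nuclei exceeded it 48.4-fold (34.4 to 70.5), the largest of the ratios in favour of rods among the 10 genes. For scale, 2.90% of the rod level of Hk2, the proportion at which rod markers were found in RPE-like nuclei, is 12.7 CPM. That is above the 9.04 CPM found, and the part of rod RNA in the RPE level was not tested. Of its 33 UMIs, 16 came from RPE cluster 12, the shallower of the RPE clusters, at 36.0 CPM, against 5.30 CPM in RPE cluster 10. Hk2 was found in 4.23% of RPE-like nuclei (median 2937 UMIs), 69.4% of cone-like nuclei (median 2418 UMIs) and 37.4% of rod-like nuclei (median 1071 UMIs). Hk1 in RPE-like nuclei, at 197 CPM, was 4.43-fold below rod-like nuclei (4.104 to 4.79), and the same proportion of its rod level is 25.3 CPM.

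Of the Hk1 and Hk2 UMIs together, Hk2 made up 4.39% in RPE-like nuclei (3.04 to 6.12%, exact binomial), 17.7% in Müller glia-like nuclei, 46.6% in cone-like nuclei (44.5 to 48.8%) and 33.4% in rod-like nuclei (32.6 to 34.3%). The RPE share was 2.71% without RPE cluster 12, 2.47% without the 5% highest Scrublet scores and 8.97% (3.68 to 17.6%) after thinning to 500 UMIs. Skeletal muscle-like nuclei, at 83.8%, and adipocyte-like nuclei, at 75.2%, were the classes in which Hk2 outnumbered Hk1. Microglia- or macrophage-like nuclei were near equality, at 49.1% (41.1 to 57.1%). Among the inner neurons the share was 8.98% in the bipolar-like, 7.31% in the amacrine-like and 4.15% in the ganglion cell-like class. The photoreceptor classes pooled exceeded the pooled bipolar-, amacrine-, horizontal- and ganglion cell-like nuclei 21.01-fold for Hk2 (18.9 to 23.4) and 2.99-fold for Hk1 (2.89 to 3.10). The rod-marker proportion of the rod level of Hk2 is 24.2 CPM in bipolar-like (35.2 CPM found) and 12.3 CPM in amacrine-like nuclei (17.9 CPM found). It is 6.15 CPM in ganglion cell-like (10.9 CPM found) and 7.29 CPM in horizontal-like nuclei (10.2 CPM found). The part of rod RNA in the fold and in the inner neuron shares of Hk2 was not tested.

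Aldoa and Pkm, which act midway and at the last step of glycolysis, were highest outside the photoreceptors among the pooled classes. Aldoa stood at 1924 CPM in skeletal muscle-like nuclei (1880 to 1968), 1805 CPM in horizontal-like nuclei (1674 to 1943) and 1449 CPM in ganglion cell-like nuclei, and the intervals of the first pair overlapped. Mitochondrial RNA made up 5.91% of the UMIs of skeletal muscle-like nuclei, and without mitochondrial genes and Gm42418 in the totals their Aldoa level was 3063 CPM. The mitochondrial share alone is too small for this rise, so most of it came with Gm42418. Pkm stood at 1296 CPM in ganglion cell-like nuclei (1258 to 1334), 989 CPM in cone-like nuclei, and in rod-like nuclei it was at 880 CPM. Photoreceptor-like nuclei exceeded the inner neurons only 1.27-fold for Pkm and stood at 0.783 of their level for Aldoa. Müller glia-like nuclei were low for both, at 270 CPM of Pkm, against 880 CPM in rod-like nuclei, and 320 CPM of Aldoa, against 696 CPM in rod-like nuclei.

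The lactate dehydrogenase genes ran in opposite directions between the RPE and the photoreceptors. Ldha was lowest of all classes in RPE-like nuclei at 52.3 CPM (45.2 to 60.3), an interval that overlapped those of other low classes. It was highest in the photoreceptors, at 336 CPM in cone-like nuclei (311 to 363) and 382 CPM in rod-like nuclei (369 to 394). Ldhb was highest in RPE-like nuclei at 158 CPM (145 to 171), followed by astrocyte-like nuclei at 136 CPM and myelinating glia-like nuclei at 129 CPM with overlapping intervals, and stood at 11.3 CPM in rod-like nuclei (9.25 to 13.7). RPE-like over rod-like nuclei gave a ratio of 13.97 for Ldhb (11.3 to 17.4), and for Ldha the rod-like nuclei were 7.29-fold higher (6.30 to 8.48).

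As a share of both subunits, Ldha made up 24.9% of the UMIs in RPE-like nuclei (21.9 to 28.1%) and 97.1% in rod-like nuclei (96.5 to 97.6%). The RPE share was 24.3, 25.1, 23.7 and 26.8% in pieces 1 to 4, and the rod share 97.2, 96.4, 95.5 and 98.1%. In each piece the intervals of the RPE and rod shares lay far apart. Cone-like nuclei, at 93.9%, and bipolar-like nuclei, at 92.7%, were close to rods and overlapped each other. Müller glia-like nuclei lay between, with 66.7% (59.5 to 73.3%), near the 67.4% of ganglion cell-like and the 72.9% of amacrine-like nuclei. Myelinating glia-like nuclei, at 29.2% (20.1 to 39.8%), were nearest to the RPE. The rod-marker proportion of the rod level of Ldha is 11.1 CPM in RPE-like (52.3 CPM found) and 14.3 CPM in Müller glia-like nuclei (77.0 CPM found). The part of rod RNA in the Ldha shares and ratios of these classes was not tested. These shares compare classes only, because the capture of different genes can differ.

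**Figure D2:**
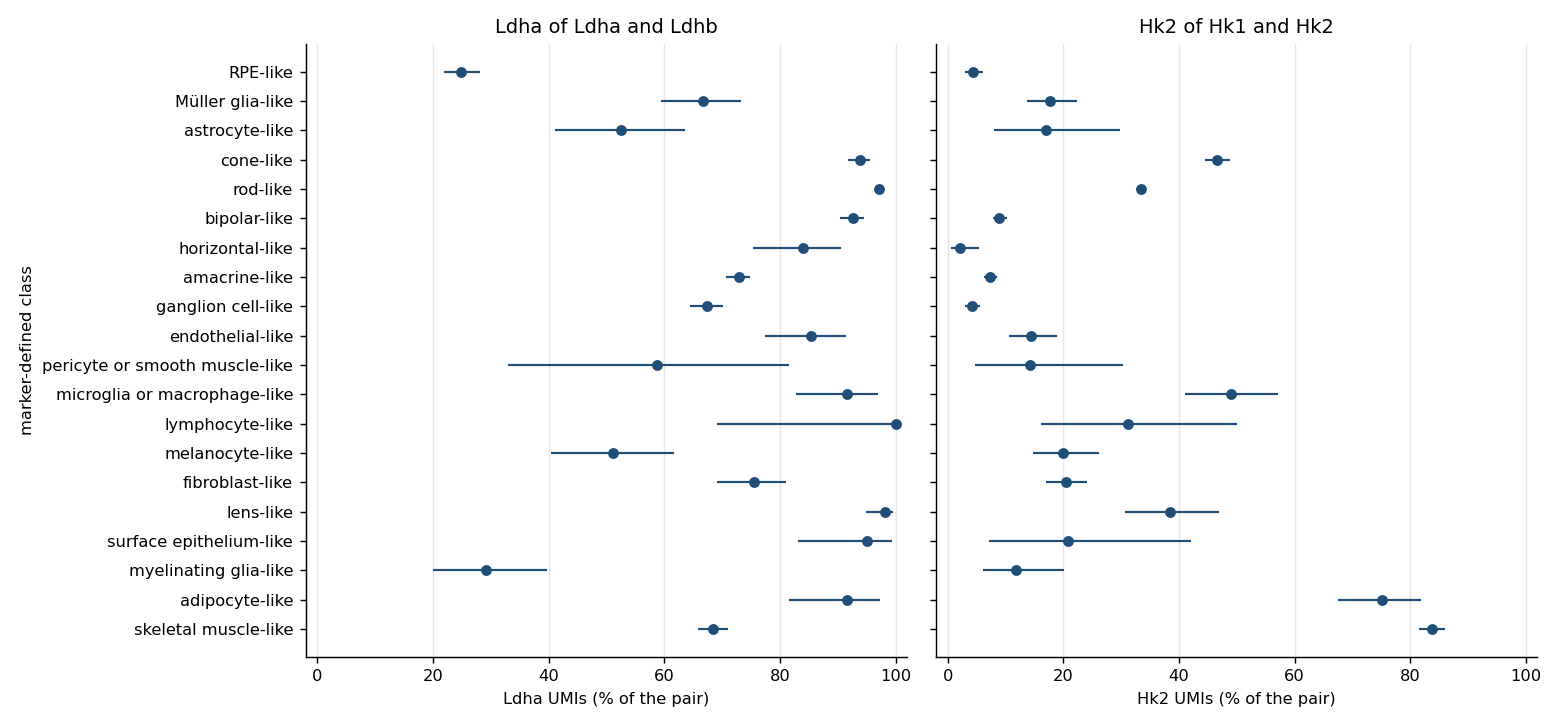
Share of Ldha among Ldha and Ldhb UMIs (left) and of Hk2 among Hk1 and Hk2 UMIs (right) in each class, with exact binomial 95% intervals as lines. RPE-like nuclei are at 24.9% and 4.39%, and rod-like nuclei at 97.1% and 33.4%.

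Of the lactate transporter genes, Slc16a8 was nearly all in the RPE: 2126 of its 2160 UMIs were in RPE-like nuclei, at 582 CPM (558 to 608). It was found in 68.1% of RPE-like nuclei (median 2937 UMIs) and in 0.0865% of rod-like nuclei (5 of 5778, median 1071 UMIs), a class that should lack it. Rod-like nuclei had 0.533 CPM (0.173 to 1.24), which makes the RPE-like level 1093-fold higher (468 to 3370). Müller glia-like and cone-like nuclei had 0 UMIs, which allows up to 1.83 and 1.56 CPM (3 counts of the class total). No other class had more than 5 UMIs. The intervals of the RPE-like clusters overlapped, with 578 CPM in cluster 10 and 617 CPM in cluster 12.

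Slc16a1 was also highest in RPE-like nuclei and lower, at similar levels, in several glial, photoreceptor and vessel classes. It stood at 722 CPM in RPE-like nuclei (694 to 750) and at 118 CPM in rod-like nuclei, a ratio of 6.12 (5.70 to 6.57). Endothelial-like nuclei at 159 CPM, Müller glia-like at 144 CPM, cone-like at 136 CPM, rod-like at 118 CPM and astrocyte-like at 104 CPM formed a run in which each neighbour's interval overlapped the next, and the endothelial-like value came mostly from the 1 cluster described with the vessels. Inner neurons were well under this run, at 18.3 CPM in bipolar-like, 14.3 CPM in amacrine-like and 21.7 CPM in ganglion cell-like nuclei. Photoreceptor-like nuclei pooled exceeded them 7.003-fold (6.18 to 7.95). Slc16a8 in rod-like nuclei was at 0.0915% of its RPE level, from 5 UMIs, and that proportion of the RPE level of Slc16a1 is 0.660 CPM. This scale covers RPE RNA only, since Müller glia-like nuclei and endothelial-like cluster 35 had Slc16a1 but 0 UMIs of Slc16a8. The part of carried-over RNA in the rod level was not tested.

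Bsg stood at 1833 CPM in RPE-like nuclei (1789 to 1877) and at 165 CPM in rod-like nuclei (156 to 173), a ratio of 11.1 (10.5 to 11.8). Endothelial-like nuclei at 786 CPM and Müller glia-like nuclei at 782 CPM followed with overlapping intervals, and then astrocyte-like nuclei at 554 CPM. Cone-like nuclei had 271 CPM (248 to 295), 1.65-fold the rod level (1.49 to 1.82), and this was the only gene to pass 2-fold for cones over rods in any alternative, with coarser clusters (resolution 0.5).

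Inside the endothelial-like class 1 cluster carried nearly all of the Slc16a1 and most of the Bsg. Cluster 35, with 133 nuclei, had 3622 CPM of Bsg (3381 to 3875), 801 CPM of Slc16a1 (690 to 925) and 1697 CPM of Slc2a1 (1533 to 1873). The other 3 endothelial-like clusters pooled had 130 CPM of Bsg, 10.96 CPM of Slc16a1 and 188 CPM of Slc2a1. Cluster 35 exceeded them 28.0-fold for Bsg (23.2 to 33.9), 73.1-fold for Slc16a1 (39.9 to 149) and 9.01-fold for Slc2a1 (7.56 to 10.8). The cluster was singled out after its values were seen, and these ratios are descriptions.

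Cluster 35 also differed from the other endothelial-like clusters in vessel genes, named here after their values were seen, and in position. Of the 4 clusters it had the highest levels of Slco1a4 (1180 CPM), Abcb1a (831 CPM) and Mfsd2a (233 CPM), transport genes known from vessels with a blood-tissue barrier, and 17.2 CPM of Plvap, a gene of fenestrated capillaries. Cluster 31 had 2039 CPM of Plvap and 0 UMIs of Mfsd2a. Depth could be measured for 98 nuclei of cluster 35, and 76 of these lay between 25 and 1000 coordinate units inward of the RPE, with a median depth of 589 among those in the band, against 10 of 129 in cluster 31, whose median was -18.4, on the outer side. Rgs5, a pericyte gene, stood at 2015 CPM in cluster 35, against 2909 CPM in pericyte- or smooth muscle-like nuclei. That class itself had 137 CPM of Bsg, 6.54 CPM of Slc16a1 and 111 CPM of Slc2a1.

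Against the RPE, cluster 35 was higher for Bsg (1.98-fold, 1.84 to 2.12) and Slc2a1 (1.51-fold, 1.36 to 1.68), and its Slc16a1 level could not be told from that of the RPE (ratio 1.11, 0.952 to 1.29). Slc16a8 had 0 UMIs in it. With the endothelial-like clusters taken as separate classes, an alternative chosen after seeing them, Slc16a8 was the 1 gene of the 10 still class-high in RPE-like nuclei. In pieces 1 to 4 the cluster held 34, 32, 38 and 29 nuclei, with Slc16a1 at 611, 1021, 735 and 943 CPM and Bsg at 4052, 3188, 3760 and 3225 CPM. In each piece both genes stood above the level of the other endothelial-like clusters. Slc2a1 in cluster 35 was at 1541, 1250, 1287 and 3225 CPM in pieces 1 to 4, so piece 4 weighs on its ratio to the RPE. In pieces 2 and 3 its interval overlapped that of the RPE-like nuclei of the same piece.

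**Figure D3:**
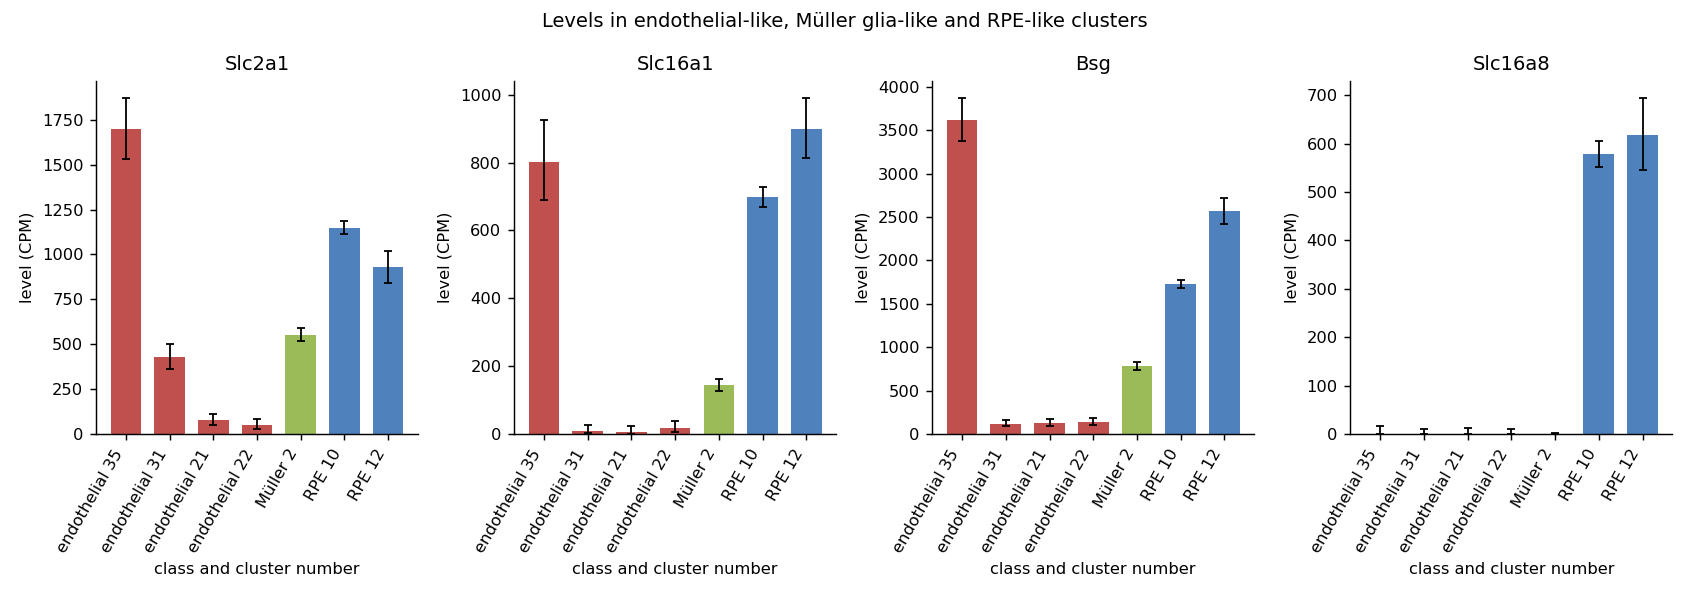
Levels in CPM of 4 transport genes in the endothelial-like clusters (red), the Müller glia-like cluster (green) and the RPE-like clusters (blue), with exact Poisson 95% intervals. Pooled over the pieces, endothelial-like cluster 35 matches or exceeds the RPE for Slc2a1, Slc16a1 and Bsg, at 1697, 801 and 3622 CPM, and has 0 UMIs of Slc16a8.

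Against rod-like nuclei, Müller glia-like nuclei had higher Slc2a1, Bsg and Ldhb and lower Hk1, Hk2, Ldha and Pkm. Slc2a1 was 4.95-fold higher (4.52 to 5.41), Bsg 4.75-fold higher (4.41 to 5.12) and Ldhb 3.41-fold higher (2.45 to 4.70), so 3 of 10 genes were higher past 2-fold, against 18.2% of measured genes. Of the rest, 4 were lower, against 7.47% of measured genes (25.6% in either direction): rod-like nuclei exceeded Müller glia-like nuclei 12.6-fold for Hk2 (9.68 to 16.6), 5.38-fold for Hk1, 4.96-fold for Ldha and 3.26-fold for Pkm. For Hk2 in Müller glia-like nuclei the rod-marker proportion of the rod level is 16.4 CPM, against 34.8 CPM found. Aldoa, at 2.18-fold (1.99 to 2.39) in favour of rods, missed the rule narrowly and met it when piece 1, 2 or 3 was left out. Ldhb no longer met it without piece 4. Slc16a1 lay within 2-fold (ratio 1.22, 1.05 to 1.40). The median log2 ratio was -1.12 over 9 genes with UMIs in both and 0.07 over 15431 genes.

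Between cone- and rod-like nuclei 0 of the 10 genes passed 2-fold, against 5.69% of measured genes, 4.93% higher and 0.751% lower in cones. Rod markers stood at 60.4% of their rod level in the same cone-like nuclei. That proportion of the rod level is 67.6 CPM for Slc2a1 (67.1 CPM found in cones), 526 for Hk1 (595), 231 for Ldha (336) and 532 for Pkm (989). It is 71.2 CPM for Slc16a1 (136 found), 265 for Hk2 (519), 421 for Aldoa (890), 99.4 for Bsg (271) and 6.83 for Ldhb (21.9). The proportion sums all rod markers, so it would include any that cones express themselves and is no measure of rod RNA in cones. The part of rod RNA in the cone levels, shares and orders was not tested. Photoreceptor-like nuclei against inner retinal neurons gave 4 genes higher (9.96% of measured genes), namely Hk2, Slc16a1, Hk1 and Ldha at 2.41-fold (2.30 to 2.53), and 1 lower (21.7% of measured genes), Ldhb (31.6% in either direction). Ldha was not called without piece 4. For Ldhb the photoreceptor-like nuclei had 13.1 CPM and the inner neurons 51.4 CPM, a 3.93-fold gap (3.30 to 4.70).

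Other genes of the pathway came from a list of enzymes, transporters and partners. Of 49 listed genes, 46 reached 20 UMIs and 7 were class-high, which is read against the same 7.83% of measured genes. Hkdc1, which encodes a hexokinase domain protein, was at 225 CPM in the Müller glia-like class, 44.4 CPM in RPE-like and 0.959 CPM in rod-like nuclei. Slc2a12, a glucose transporter gene, was at 173 CPM in RPE-like nuclei and 31.2 CPM in Müller glia-like nuclei. Hk3 was at 97.4 CPM in microglia- or macrophage-like nuclei, and Pfkfb1, whose enzyme makes an activator of phosphofructokinase, at 478 CPM in adipocyte-like nuclei. The muscle forms Pfkm, Pgam2 and Eno3 led in skeletal muscle-like nuclei at 572, 358 and 835 CPM.

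For RPE-like over rod-like nuclei, 3 of 32 listed enzyme and pyruvate genes were higher and 6 lower, and 5 of 14 transport genes and partners were higher and 5 lower, read against the 15.1% higher and 13.7% lower of all measured genes. The greatest ratios were Hkdc1 (46.3, 23.8 to 103), Txnip (38.6, 12.4 to 194), Nxnl2 in favour of rods (36.9, 14.3 to 136, from 4 UMIs in RPE-like nuclei) and Slc16a13 (23.1, 3.21 to 1014, from 9 UMIs in RPE-like and 1 in rod-like nuclei). For Müller glia-like over rod-like nuclei, 6 enzyme genes were higher and 5 lower, and 5 transport genes were higher and 5 lower (18.2% and 7.47% of measured genes), led by Hkdc1 (234, 122 to 517), Slc16a13 (51.6, 7.15 to 2262, from 9 and 1 UMIs), Nxnl2 in favour of rods (33.1, 9.09 to 274, from 2 UMIs in Müller glia-like nuclei) and Emb (25.4, 10.97 to 68.3, from 31 and 7 UMIs). Of the 46 listed genes 0 passed for cones over rods (5.69% of measured genes). For photoreceptors over inner neurons 6 were higher and 14 lower over both lists (9.96% and 21.7% of measured genes), led by Slc16a7, which encodes the monocarboxylate transporter MCT2, and Emb, which encodes a relative of basigin. Slc16a7 stood at 0.619 CPM in photoreceptor-like nuclei and 67.0 CPM in inner neurons, and Emb at 0.708 CPM in photoreceptor-like nuclei and 75.5 CPM in inner neurons.

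Rods also carried listed genes that were chosen for naming after their values were seen. Pfkfb2, whose enzyme also makes an activator of phosphofructokinase, was at 59.4 CPM in the RPE, 346 CPM in the cone and 584 CPM in the rod class. Slc16a6, of the same transporter family as Slc16a1, was at 131 CPM in the RPE, 267 CPM in the cone and 388 CPM in the rod class. Nxnl1, whose product RdCVF is known to bind basigin on cones, was at 22.7 CPM in the RPE, 124.9 CPM in the cone and 190.4 CPM in the rod class.

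On the chip the transporter genes peaked at the RPE and the hexokinase genes just inside it. Depth was measured inward from the local ring of RPE-like nuclei, in the chip's own coordinate units, which could not be turned into a length. In the bin around the RPE (-100 to 25), where 30.97% of nuclei were RPE-like and 19.8% rod-like, all nuclei together had 1036 CPM of Bsg, 671 CPM of Slc2a1, 409.5 CPM of Slc16a1 and 314 CPM of Slc16a8. In the next bin (25 to 150), where 75.0% were rod-like, Bsg was at 302 CPM, Slc2a1 at 155 CPM, Slc16a1 at 146 CPM and Slc16a8 at 30.5 CPM. Hk2 ran the other way, at 70.9 CPM around the RPE, 442 CPM in the next bin, and 232, 83.1, 38.7, 28.6, 27.9 and 24.98 CPM in the 6 bins further in.

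Aldoa and Pkm had a second maximum in the inner retina. Aldoa was at 794 CPM at 25 to 150, at 657 CPM at 150 to 275 and at 1200 CPM at 650 to 775, where ganglion cell-like nuclei made up 22.04%. Pkm was at 914, 682 and 924 CPM in the same bins. Ldhb was lowest at 25 to 150, with 20.4 CPM, and was at 101.7 CPM around the RPE and 78.6 CPM at 650 to 775. These profiles pool all classes, so they show which classes lie where as much as any level within a class.

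**Figure D4:**
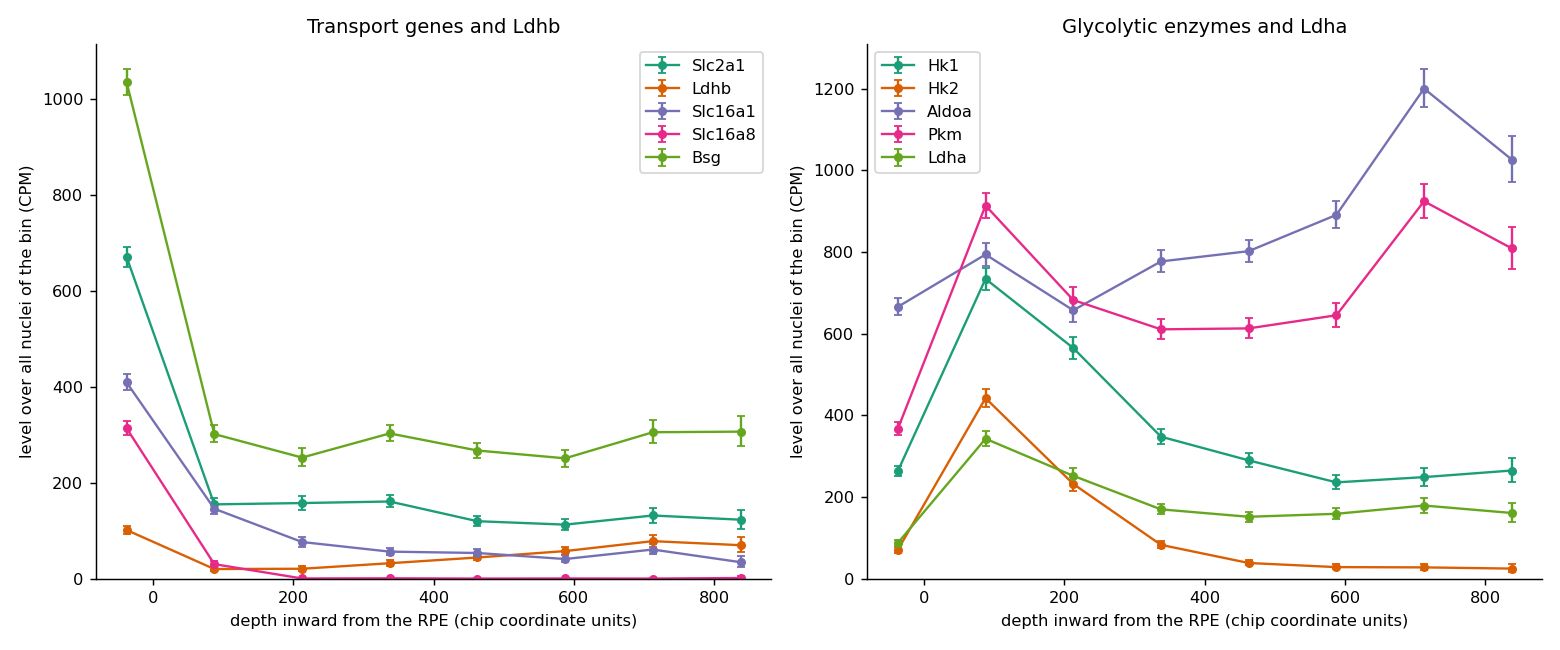
Levels in CPM, pooled over all nuclei of a depth bin with exact Poisson 95% intervals, against depth inward from the RPE in chip coordinate units. Bsg, Slc2a1, Slc16a1 and Slc16a8 are highest in the bin around the RPE, Hk1, Hk2 and Ldha in the next bin, and Aldoa at 650 to 775 units.

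Within rod-like nuclei, levels differed less with depth. Rods of the band were split at the median depth of each piece into 1496 outer nuclei, nearer the RPE, and 1493 inner nuclei, and none of the 10 genes passed 2-fold, against 0.0746% of measured genes. Bsg differed most, at 208 CPM in the outer rods and 137 CPM in the inner rods (ratio 1.51, 1.32 to 1.74). Pkm (1.19), Aldoa (1.18) and Hk2 (1.17) also had intervals above 1, and those of Hk1 (0.994) and Slc2a1 (0.998) held 1.

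The Bsg difference moved with 1 rod-like cluster. Cluster 11, of 302 nuclei, was led by outer segment transcripts, had 0.368% mitochondrial UMIs, against 0.109% in cluster 1, and lay at a median depth of 114, against 146. It had 311 CPM of Bsg (285 to 338), 1376 CPM of Pkm and 1215 CPM of Aldoa, against 134, 776 and 584 CPM in cluster 1. Without cluster 11 the outer-to-inner ratio of Bsg was 1.17 (0.987 to 1.38), so its interval then held 1. Hk1, at 856 and 864 CPM in clusters 11 and 1, had overlapping intervals.

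The 4 pieces held 4345, 4257, 3695 and 4570 nuclei. Slc2a1 in RPE-like nuclei was at 1060, 1094, 1205 and 1117 CPM in pieces 1 to 4, Slc16a8 at 631, 474, 618 and 586 CPM, and Slc16a1 at 757, 598, 724 and 780 CPM. Every one of these lay above all 4 rod values of the same gene. None of the 10 genes passed 2-fold between the highest and lowest piece in RPE-like nuclei (0.586% of measured genes), Müller glia-like nuclei (0.186%), cone-like nuclei (0.261%) or rod-like nuclei (0.512%).

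Rod-like nuclei of piece 4 nonetheless had the highest level of 7 of the 8 genes that reached 50 CPM in rods. Aldoa was at 673, 547, 535 and 921 CPM in pieces 1 to 4, Ldha at 400, 298, 310 and 472 CPM, Hk2 at 364, 411, 397 and 541 CPM, and Pkm at 898, 751, 719 and 1056 CPM. Hk1 differed, with its highest level in piece 2, at 746, 995, 875 and 876 CPM. For all 8 the intervals of the highest and lowest piece were apart, against 34.3% of the 3486 genes of at least 50 CPM, and their median fold was 1.51, against 1.21 over those genes. Those genes were not matched to the 8 in level, on which the width of the intervals depends. In rod cluster 1 alone piece 4 again had the highest level of 7 of the 8. Cluster 11 made up 5.75, 5.44, 3.87 and 5.43% of the rod-like nuclei of the pieces, their median depth was 953, 1187, 1198.5 and 1021 UMIs, and mitochondrial UMIs were 0.175, 0.157, 0.131 and 0.157%; the part of these in the difference was not tested.

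Cone-like nuclei were also highest in piece 4 for Aldoa, at 906, 701, 670 and 1399 CPM, for Pkm, at 1034, 905, 820 and 1263 CPM, and for Ldha, at 329, 319, 255 and 453 CPM. In Müller glia-like nuclei the genes were mixed. Ldha (79.3, 70.2, 75.6 and 84.6 CPM in pieces 1 to 4), Slc16a1 (129, 140.4, 143 and 176 CPM), Hk1 and Ldhb were highest in piece 4, each with an interval there that overlapped those of the other pieces. Slc2a1 was lowest in piece 4, at 601, 524, 610 and 430 CPM, as was Bsg, at 817, 833, 837 and 564 CPM. Pkm (273, 278, 268 and 254 CPM), Aldoa (330, 304, 339 and 296 CPM) and Hk2 were also lowest in piece 4. Their intervals there overlapped those of the other pieces. The pieces have no group in the labels, so these values stand side by side.

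**Figure D5:**
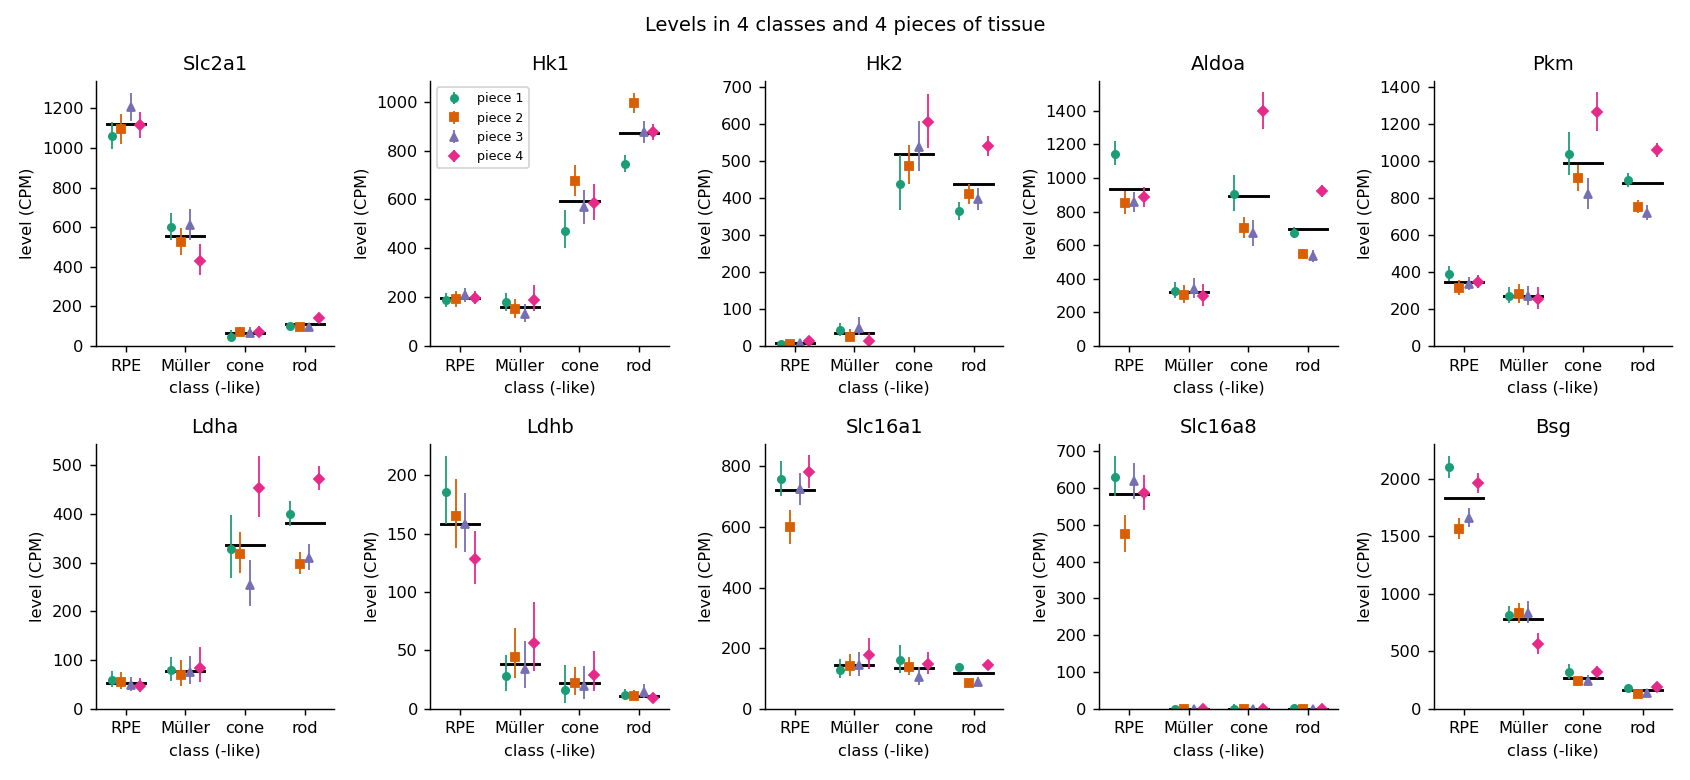
Levels in CPM of the 10 genes in RPE-, Müller glia-, cone- and rod-like nuclei. Points are the 4 pieces with exact Poisson 95% intervals and black lines the level over all pieces; piece 4 has the highest rod-like level of Aldoa (921 CPM) and Ldha (472 CPM).

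Likeness between neighbouring rods was small for these genes, although their median stood above that of all genes compared. Moran's I, which is near 0 without spatial pattern, was taken over the 10 nearest rod-like nuclei within a piece for the 8 genes found in at least 5% of them. It ran from -0.00559 for Slc16a1 to 0.0175 for Hk2, with a median of 0.0117, against a median of 0.00148 over 4337 genes, of which Vax2os was highest at 0.132. Hk2, Aldoa (0.0150) and Bsg (0.0136) were above 0.0133, the 95th percentile of those genes. The 8 were found in 13.4 to 58.7% of rod-like nuclei, and the genes compared were not matched to them in this. With the 20 nearest nuclei the median of the 8 was 0.00510, against 0.00107 over the genes compared.

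Over the 20 classes, which share 1 library and differ in depth, the genes whose log2(CPM + 10) pattern was most like that of Slc16a8 were E130120K24Rik (Pearson's r = 0.984), Gm50011, Gm15222, Sult1c1 and Rpe65 (0.977), a gene of the visual cycle. For Slc16a1 they were Gm43581 (0.819), Lrp2, Bsg (0.769), Myrip and Tc2n. For Hk2 they were Sfxn2 (0.869), Gm16104, Gm41757, Uckl1os and Tob2. For Slc2a1 they were 4930556M19Rik (0.863), Nt5dc2, Nxn, Cdh3 and Cnn3, and for Ldhb Thtpa (0.819), Ndufb4, Lamtor2, Mrpl41 and Fgf1. Among the 10 genes themselves the closest pairs were Pkm with Aldoa (0.836), Pkm with Ldha (0.834), Slc16a1 with Bsg (0.769) and Slc2a1 with Bsg (0.734).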

How the data were processed

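The matrix deposited by the authors holds unnormalized UMI counts, whole numbers for every gene in every barcode. A deposited table gives each barcode 1 position, in a unit of unknown length. Seurat 4.1.1, STAR and fastp, with the build mm10, are listed in the submitters' processing notes; what each did, the strand setting and the handling of introns are unknown here. Hk1, Pkm, Ldha, Slc2a1 and Slc16a8 overlap other annotated genes, so their counts are uncertain by what those genes could add. Gene positions and promoter letters are RefSeq's for GRCm38.p6, matched by symbol; 9 of 10 members had a promoter window.

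Nuclei with at least 200 genes and under 10% mitochondrial UMIs were kept (16867 of 17285 barcodes; no barcode appeared more than once). Scrublet marked 0 nuclei, which allows up to 0.0178%; a caller that marks fewer than 0.5% was treated as failed, and doublets were left in. Counts were scaled to 10000 per nucleus and log-transformed, and 72 clusters came from Leiden clustering (resolution 1, 15 neighbours, 30 components of 2000 variable genes), named from marker lists when at least 3 markers led. The 5 members and listed pathway genes among the variable genes were left out of clustering. Computation used python 3.11.15, scanpy 1.11.5, scipy 1.17.1 and scikit-learn 1.9.0.

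Pooled levels carry exact Poisson and shares exact Clopper-Pearson 95% intervals. Ratios carry exact conditional binomial 95% intervals, and a call needs the whole interval beyond 2-fold. Genes under 20 UMIs were not measured. The 4 pieces were divided at gaps between nuclei on the chip, and depth was taken from RPE-like nuclei at angles with at least 5 of them; the band runs from -200 to 1000 units. Intervals and calls were run on simulated Poisson counts. These hold no further spread between nuclei, clusters or pieces, so the run cannot show how the intervals fare with it. Named were all 10 members; pathway genes class-high or past 2-fold, up to 4 a comparison by ratio; and the 5 genes most like Slc16a8, Slc16a1, Hk2, Slc2a1 and Ldhb. Members and lists were chosen with earlier results of these data known. Alternatives were other cluster settings, filters, thinning to 500 UMIs, totals, factors and left-out pieces.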

Additional observations from a re-analysis of the deposited data

How the results depend on the processing

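No paired analysis was possible because neither sample has a group label. The 23 results were recomputed under alternatives, giving 259 values: 209 stayed within the reported interval or, for counts, within 1.5 times, 50 moved and 0 reversed; the cause was not tested where none is given. Class-high genes numbered 1 (Slc16a8) with endothelial-like clusters taken separately, which by construction sets Slc16a1 and Bsg against cluster 35, and 1 (Slc16a8) after thinning to 500 UMIs, which leaves fewer UMIs; the count was 2 (Slc16a1 and Slc16a8) with 15 components, at factor 3 and without piece 4. Cone over rod gave 1 gene (Bsg) at resolution 0.5. Photoreceptor over inner neuron gave 3 at factor 3, a stricter rule, and 4 (without Ldha) without piece 4. The Ldha share in RPE-like nuclei was 21.4% without the 5% highest Scrublet scores and 30% after thinning. The Hk2 share in RPE-like nuclei was 2.47% without those scores, 8.97% after thinning and 2.71% without rod cluster 11 and RPE cluster 12. In rod-like nuclei it was 32.4% after thinning and ranged from 30.96 (without piece 4) to 34.9% (without piece 2) with 1 piece left out. The median Moran's I was 0.00510 with 20 neighbours. Of 130 member levels in the highest class, 94 stayed within their interval, and all 130 ranged from 0.832 to 1.59 times the reported level, the highest being Aldoa in skeletal muscle-like nuclei at 3063 CPM with totals free of mitochondrial genes and Gm42418. Over all alternatives, RPE-like nuclei reached 1362 CPM of Slc2a1, 875 CPM of Slc16a1 and 2222 CPM of Bsg, and rod-like nuclei 915 CPM of Hk1. The share of Gm42418 in each class is not given here, and ratios between classes depend on it. Hk2 in RPE-like nuclei rests on 33 UMIs, which limits its share.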

Other observations

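Of the rod-like nuclei, 2789 lay outside the retinal band or at angles without enough RPE-like nuclei. Their levels were close to those of the 2989 rod-like nuclei in the band: in the band Hk2 was at 466 CPM, against 406 CPM outside (ratio 1.15, 1.08 to 1.22), and Ldha at 393 CPM, against 368 CPM outside (1.07, 1.00 to 1.14). Bsg was at 176 CPM in the band and 152 CPM outside (1.16, 1.04 to 1.28).

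A ganglion cell-like cluster of 86 nuclei, cluster 45, had the highest Aldoa and Pkm levels among 51 named clusters of at least 50 nuclei, at 2508 and 2130 CPM, against 1418 and 1271 CPM in the ganglion cell-like cluster 8. Its nuclei had a median of 650 UMIs and 2.32% mitochondrial UMIs, against 8151 UMIs and 0.340% in cluster 8. A like contrast held within the RPE: cluster 12 (median 1013 UMIs, 2.01% mitochondrial) had 2566 CPM of Bsg and 1371 CPM of Aldoa, against 1731 and 871 CPM in cluster 10 (median 5613 UMIs, 1.05% mitochondrial). Slc2a1 ran the other way, at 928 CPM in cluster 12 and 1150 CPM in cluster 10. The part of depth and mitochondrial RNA in these differences was not tested.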
